A study of Mus musculus with 4 samples.

Results

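Neural stem and progenitor genes were read in cerebrum RNA of mice that lack Mfsd2a, the transporter of lysophosphatidylcholine-bound docosahexaenoic acid at the blood-brain barrier, in endothelial cells. The group holds 9 genes, of 18194 genes on the array that were matched to a symbol: Sox2, Pax6, Nes, Hes1, Egfr, Eomes, Neurog2, Dlx1 and Dlx2. They were taken by name, and are covered by 22 of the 45101 probe sets. The probe set that was brightest over the 4 arrays, by its mean log2 signal, stands for a gene, and the other probe sets are given beside it.

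There were 4 conditions, each measured once on an Affymetrix mouse expression array with RNA pooled from 5 to 6 cerebrum samples. The 2aECKO pool came from Mfsd2afl/fl mice with Tie2-cre and its control, 2afl/fl, from Mfsd2afl/fl mice without cre, both at postnatal day 9. The 2aiECKO pool came from Mfsd2afl/fl mice with Cdh5ERT2-cre, in which 4-OHT given from birth induces the deletion, and its control from 2afl/fl pups that were also given 4-OHT, both at postnatal day 8. All 4 groups therefore carry the floxed allele, and the Tie2 promoter is also active in the blood lineage. The study used mice of both sexes, and the sexes within each pool are not given here. For the 2aiECKO sample title and source name disagree, the latter giving 2aECKO, and the title was followed. With 1 pooled array per condition no difference has a replicate check, no p-value can be given, and a whole-tissue signal cannot tell fewer cells of a type from less RNA per cell.

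Neural stem cells of the embryonic cortex are radial glia, which line the ventricle, divide and give rise to neurons directly or through intermediate progenitors. After birth most radial glia turn into astrocytes and ependymal cells, and a remnant stays in the subventricular zone beside the lateral ventricle, from where new interneurons migrate to the olfactory bulb. Sox2 and Pax6 are transcription factors of radial glia, Nes encodes their intermediate filament nestin, and Hes1 is a repressor that Notch signalling switches on. Egfr, the receptor of epidermal growth factor, marks activated stem cells and their dividing progeny. Eomes, also called Tbr2, and the proneural factor Neurog2 mark the excitatory branch of neurogenesis, and Dlx1 and Dlx2 the inhibitory branch that starts in the ventral forebrain. Several of these genes are not limited to progenitors: astrocytes and ependymal cells also express Sox2, olfactory bulb neurons express Eomes, Pax6 and Dlx1, and growing vessels express Nes.

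The promoters of 4 of these genes are printed because Sox2 and Pax6 were the 2 of the 9 genes past the study's fold threshold in a knockout against its own control, and Dlx1 and Dlx2, which are neighbours in the genome, moved alike. Each window runs from 250 bases before to 50 bases after the gene's start, 5′ to 3′ on the gene's strand, in RefSeq's GRCm38.p6 build: chr3:34649745-34650044 on the plus strand for Sox2, chr2:105668646-105668945 on the plus strand for the first of 2 Pax6 starts, chr2:71529195-71529494 on the plus strand for Dlx1 and chr2:71546705-71547004 on the minus strand for Dlx2. Capitals mark matches to a CCAAT box (CCAAT or ATTGG), an E-box (CACGTG), a homeodomain core (TAATTA) or a sterol regulatory element (TCACNCCAC or GTGGNGTGA), searched on both strands.
Sox2: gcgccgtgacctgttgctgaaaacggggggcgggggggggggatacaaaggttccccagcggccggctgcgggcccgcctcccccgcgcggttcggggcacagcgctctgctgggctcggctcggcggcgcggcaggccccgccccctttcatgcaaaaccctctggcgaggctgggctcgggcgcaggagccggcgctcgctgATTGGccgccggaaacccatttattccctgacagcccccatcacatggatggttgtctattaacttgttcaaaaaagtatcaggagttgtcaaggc
Pax6: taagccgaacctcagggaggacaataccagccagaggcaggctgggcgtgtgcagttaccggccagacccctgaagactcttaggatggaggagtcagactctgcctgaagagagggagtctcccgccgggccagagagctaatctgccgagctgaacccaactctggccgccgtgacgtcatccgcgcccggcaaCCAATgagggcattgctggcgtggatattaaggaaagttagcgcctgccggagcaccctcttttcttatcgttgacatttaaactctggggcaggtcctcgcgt
Dlx1: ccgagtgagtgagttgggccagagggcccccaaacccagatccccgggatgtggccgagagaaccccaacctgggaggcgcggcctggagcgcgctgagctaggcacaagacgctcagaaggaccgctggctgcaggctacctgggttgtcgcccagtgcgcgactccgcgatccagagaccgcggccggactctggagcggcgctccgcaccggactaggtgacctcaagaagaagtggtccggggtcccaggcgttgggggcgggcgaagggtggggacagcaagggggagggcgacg
Dlx2: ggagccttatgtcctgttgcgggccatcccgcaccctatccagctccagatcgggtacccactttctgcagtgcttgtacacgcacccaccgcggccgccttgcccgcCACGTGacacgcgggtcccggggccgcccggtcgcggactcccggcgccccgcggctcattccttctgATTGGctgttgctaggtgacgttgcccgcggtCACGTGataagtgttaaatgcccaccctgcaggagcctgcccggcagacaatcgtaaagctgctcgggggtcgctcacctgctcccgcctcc

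Sox2 and the first Pax6 window each held 1 CCAAT box, Dlx2 held 1 CCAAT box and 2 E-boxes, and Dlx1 held no match. RefSeq's table gave 9 windows for 8 of the 9 genes, Hes1 being the other gene. Of these 9 windows 0 held a sterol regulatory element, the kind of site that Srebp factors bind, against 1.24% of 32851 promoters of the same length. A CCAAT box was found in 37.4% of those promoters, the E-box in 7.15% and the homeodomain core in 5.29%. A match in these letters is a description of the window and not a bound site.

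Of the 9 genes, 8 reached a signal of at least 50, the study's own floor, on at least 1 array of each pair. Neurog2 did not reach it on any array. In 2aECKO 2 of these 8 genes, Sox2 and Pax6, were higher than in 2afl/fl by the study's fold threshold, a log2 fold of at least 0.32, and 0 were lower by that size. Among all 13186 genes that reached the floor in that pair, 2.21% were higher by the same rule and 1.74% were lower. In 2aiECKO 0 of 8 were higher and 0 lower than in the 4-OHT control, against 1.88% higher and 0.598% lower among 12050 genes. The median log2 fold of the 8 genes was 0.14 in 2aECKO and 0.099 in 2aiECKO, beside medians over all genes of -0.0071 and -0.0047. Mfsd2a, the targeted gene, read 423 and 410.2 in the 2aECKO pair and 369 and 299 in the 2aiECKO pair at its only probe set, log2 folds of -0.05 and -0.30. The sources used here do not give whether that probe set reads the floxed exons, so these values cannot check the labels. As a scale for single folds, the robust SD over all genes that reached the floor was 0.12 in 2aECKO and 0.10 in 2aiECKO, which mixes array error with real differences.

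**Figure D1:**
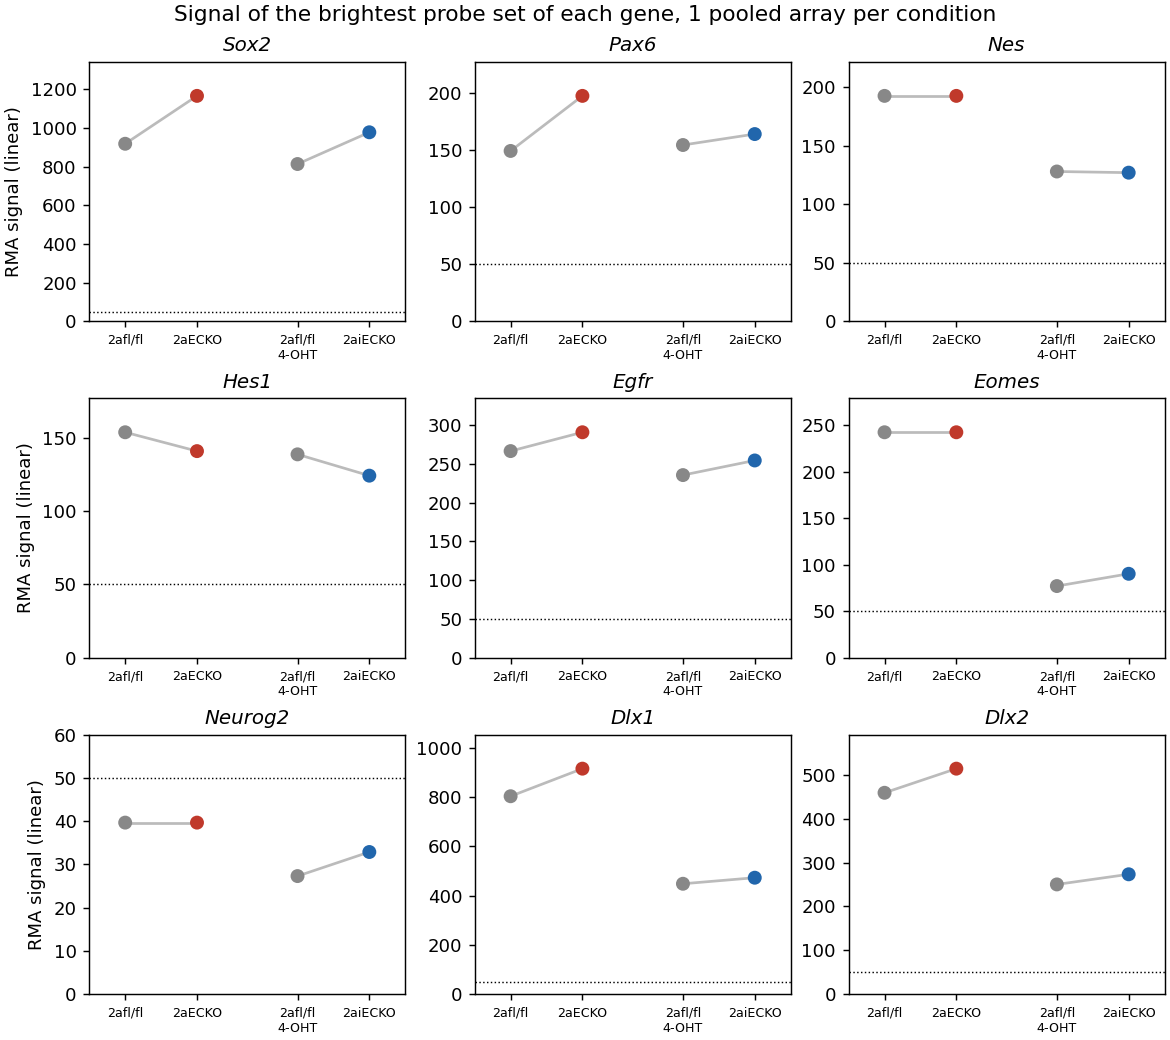
RMA signal on a linear scale (vertical axis, starting at 0) of the brightest probe set of each gene on the 4 arrays; grey points are controls, red is 2aECKO, blue is 2aiECKO, grey lines join a knockout to its own control and the dotted line marks a signal of 50. Sox2 was above its control in both pairs, Hes1 below its control in both, and Neurog2 stayed under the dotted line on every array.

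Sox2, the radial glia and stem cell factor, had a 2afl/fl signal of 919 against 1167 in 2aECKO, and 814 in the 4-OHT control against 978 in 2aiECKO. Both knockout pools lay above their own control. The log2 fold was 0.34 in 2aECKO, or 1.27-fold, and 0.27 in 2aiECKO, or 1.20-fold, which is short of the fold threshold. A larger fold was found for 248 of 13186 genes in 2aECKO and for 376 of 12050 in 2aiECKO. Sox2 has a single probe set, so no other probe set bears on these values. The long noncoding RNA Sox2ot, within which the Sox2 gene lies, read 231 and 239 in the 2aECKO pair and 144 and 162 in the 2aiECKO pair, log2 folds of 0.05 and 0.16. When the 2aECKO pool was set against the 4-OHT control instead, after quantile normalization over all 4 arrays, the log2 fold of Sox2 was 0.24, below the threshold. Against the mean of both controls it was 0.30, also below, while 2aiECKO set against 2afl/fl gave 0.37. On that common scale Sox2 had 833 in 2afl/fl and 898 in the 4-OHT control, and 1063 in 2aECKO and 1079.7 in 2aiECKO as signals. Both knockouts thus lay above both controls, a pattern looked for after the values were seen, in 1 of the 8 genes with a mean signal over the floor. This is close to the 9.7% of 12497 genes that did so, and 0 of 8 had both knockouts below both controls, against 10.1%.

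Pax6 had a signal of 149 in 2afl/fl, 197 in 2aECKO, 154 in the 4-OHT control against 164 in 2aiECKO at its brightest probe set. The 2aECKO pool lay clearly above its control, and the 2aiECKO pool slightly above its own. The log2 fold was 0.40 in 2aECKO, or 1.32-fold, exceeded by 153 of 13186 genes, and 0.09 in 2aiECKO. Another 4 probe sets name this gene. The next brightest had signals of 44.3 and 60.3 in the 2aECKO pair, a log2 fold of 0.45, with 0.20 in 2aiECKO. The other 3 stayed below 50 on every array and had log2 folds of 0.00, -0.27 and 0.20 in 2aECKO. Averaged over its 5 probe sets Pax6 had 0.16 in 2aECKO, below the fold threshold. Against the 4-OHT control it was -0.066 after quantile normalization over all 4 arrays, and against the mean of both controls 0.18. The direction of the Pax6 difference thus depended on the control array.

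Nes, the nestin gene, read 192.6 in both 2afl/fl and 2aECKO, 128 in the 4-OHT control against 127 in 2aiECKO. Its knockout and control values were level in each pair, with log2 folds of 0.00 and -0.01. The other probe set above the floor had signals of 168 and 149, a log2 fold of -0.18 in 2aECKO, and of 125 and 118, a log2 fold of -0.08 in 2aiECKO. So the stem cell filament gene was not above control at either of its bright probe sets while Sox2 was. The remaining Nes probe set was below 50 on every array.

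Hes1 had a signal of 154 in 2afl/fl, 141 in 2aECKO, 139 in the 4-OHT control against 124 in 2aiECKO at its only probe set. It lay below its control in both pairs, with log2 folds of -0.13 and -0.16, beside robust SDs over all genes of 0.12 and 0.10. In 2aECKO 2127 of 13186 genes had a lower fold, and in 2aiECKO 819 of 12050. The direction in 2aiECKO depended on the control, since against 2afl/fl Hes1 had 0.15 after quantile normalization over all 4 arrays.

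Egfr had a signal of 266 in 2afl/fl, 291 in 2aECKO, 236 in the 4-OHT control against 254 in 2aiECKO. Both knockout pools were slightly above control, with log2 folds of 0.13 and 0.11. Egfr is covered by 7 probe sets, which did not move together. In 2aECKO the 5 that reached the floor in that pair ranged from -0.14 to 0.24 in log2 fold. In 2aiECKO the 3 that did gave 0.11, 0.00 and 0.27. Averaged over the 7 probe sets the values were 0.03 and 0.02. Against the other pair's control, after quantile normalization over all 4 arrays, Egfr had -0.07 in 2aECKO and 0.31 in 2aiECKO.

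Eomes, the intermediate progenitor factor, had a signal of 242 in both 2afl/fl and 2aECKO, and of 76.9 in the 4-OHT control against 90.1 in 2aiECKO. This gave a log2 fold of 0.00 in 2aECKO and of 0.23 in 2aiECKO, the latter exceeded by 530 of 12050 genes. Its second probe set gave 257 and 256 in the 2aECKO pair and 69.4 and 75.9 in the 2aiECKO pair, log2 folds of -0.01 and 0.13. Both probe sets were level in the former pair and above their own control in the latter, by less than the fold threshold. Against the other pair's control the brighter one had 1.19 in 2aECKO and -0.98 in 2aiECKO, and against the mean of both controls 0.59 and -0.39, all past the threshold after quantile normalization over all 4 arrays. Neurog2, which drives progenitors towards excitatory neurons, was dim, at signals of 39.7 in both 2afl/fl and 2aECKO, 27.3 in the 4-OHT control against 32.9 in 2aiECKO. Below the floor its log2 folds of 0.00 and 0.27 are only listed.

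Dlx1 had a signal of 804 in 2afl/fl, 917 in 2aECKO, 448 in the 4-OHT control against 473 in 2aiECKO. Dlx2, its neighbour, had 459.9, 515, 250.4 and 274 in the same order. Both factors of the inhibitory branch lay above their own control in both pairs and by less than the fold threshold. Against the other pair's control, after quantile normalization over all 4 arrays, they were past it in opposite directions, with 0.74 for Dlx1 and 0.71 for Dlx2 in 2aECKO and -0.46 and -0.42 in 2aiECKO. The log2 folds were 0.19 and 0.16 in 2aECKO and 0.08 and 0.13 in 2aiECKO. Each has a single probe set. Dlx1as, an antisense RNA whose gene overlaps Dlx1 in the RefSeq annotation, went the other way in both pairs. Its signals were 219 and 180.4 in the 2aECKO pair, with control first, and 192 and 162 in the 2aiECKO pair, giving log2 folds of -0.28 and -0.25. The sources used here do not give which strand each of these probe sets reads. The other Dlx genes of the forebrain, Dlx5 and Dlx6, were singled out after their values were seen. Dlx5 stood at -0.02 in 2aECKO and -0.08 in 2aiECKO on the log2 scale, and Dlx6 at -0.11 and -0.03.

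**Figure D2:**
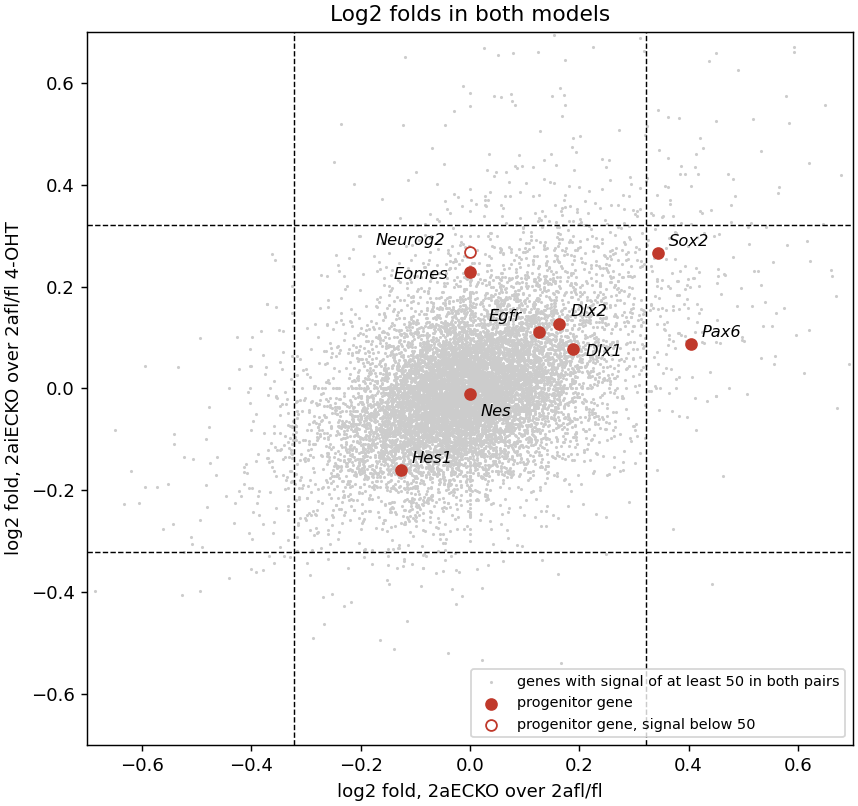
Log2 fold in 2aECKO over 2afl/fl (horizontal axis) against log2 fold in 2aiECKO over the 4-OHT control (vertical axis); red points are the progenitor genes, the open point is Neurog2 with a signal below 50, grey points are 12017 genes that reached a signal of 50 in both pairs, of which 27 lie outside the axes at 0.7, and dashed lines mark the fold threshold, a log2 fold of 0.32 up or down. Sox2 and Pax6 lie to the right of the dashed line, Sox2 close below the upper one, and Hes1 is the only red point to the lower left.

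Exact ties between a knockout and its control were found at 4 of the 22 probe sets in the 2aECKO pair and at 1 in the 2aiECKO pair. In the 2aECKO pair the deposited values of Nes, Eomes and Neurog2 at their brightest probe sets, and of 1 dim Pax6 probe set, were identical to the last digit. In the 2aiECKO pair those of the second brightest Egfr probe set were. Over all 45101 probe sets such ties made up 5.25% in the 2aECKO pair and 6.32% in the 2aiECKO pair, and 2.64% and 2.72% of those above the floor. A log2 fold of 0.00 in these genes is therefore a value of the summarized table and does not by itself show equal RNA amounts. In the same pair the second Nes probe set gave -0.18 and the second Eomes probe set -0.01.

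**Figure D3:**
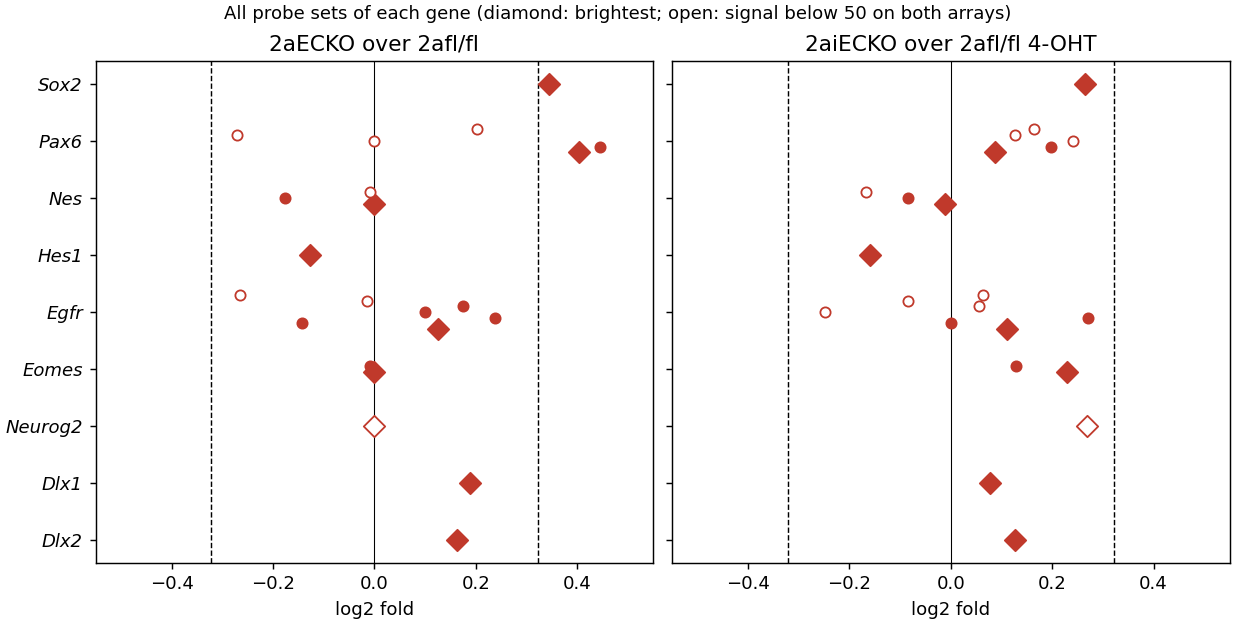
Log2 fold of all 22 probe sets of the 9 genes (horizontal axis) by gene, in 2aECKO on the left and 2aiECKO on the right; diamonds are the brightest probe set of a gene, circles the others, open symbols had a signal below 50 on both arrays of the pair, and dashed lines mark the fold threshold, a log2 fold of 0.32 up or down. Past the dashed line on the left lie the Sox2 probe set and the 2 brightest Pax6 probe sets, and no probe set lies past a dashed line on the right.

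The other genes of the pathways were taken from lists that left out the 9 genes. Some genes of radial glia and neural stem cells were higher, and most did not pass the fold threshold. Of 20 listed genes 19 reached the floor in that pair, of which 6 were higher by the fold threshold and 0 lower, and 17 had a log2 fold above 0, with a list median of 0.19. In 2aiECKO 17 reached it, 3 were higher and 0 lower, 14 were above 0, and the median was 0.12. With the other control after quantile normalization over all 4 arrays 3 were higher in 2aECKO, and the median was 0.20. Id4, an inhibitor of proneural factors, stood at 0.48 in 2aECKO and 0.33 in 2aiECKO, and its relative Id3 at 0.39 and 0.44, the former at -0.065 against the 4-OHT control. Prom1, which encodes the stem cell surface protein prominin, had 0.42 in both. Vim, the vimentin gene, had 0.39 and 0.19, with the other Vim probe sets at 0.33 and 0.42 in 2aECKO. Sox1, a relative of Sox2, had 0.33 and 0.23. Msi2, an RNA-binding protein of progenitors, had 0.34 and 0.05, and its 7 other probe sets had 0.02 to 0.19 in 2aECKO. Astrocytes and ependymal cells also express several of these genes, Vim and the Id genes among them.

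The next lists had medians nearer to 0 than the radial glia list in both models. For cell cycle genes in 2aiECKO the gap was small, at 0.09 against 0.12. Of 7 genes of intermediate progenitors and proneural factors that reached the floor, 0 were past the threshold in either model, with medians of 0.06 and 0.05, and Gadd45g had the largest log2 fold at 0.22 in 2aiECKO. Of 14 cell cycle genes in the 2aECKO pair and 12 in the 2aiECKO pair 0 were past the threshold, with medians of -0.0024 and 0.09, and Mcm3, part of the replicative helicase, had the largest at 0.24 in 2aECKO but 0.03 averaged over its probe sets. In the ganglionic eminence and ventral forebrain list the medians were 0.03 and 0.03. Isl1, a factor of striatal projection neurons, stood at 0.53 in 2aECKO, with signals of 158 and 227, and at 0.23 in 2aiECKO, but at -0.14 in 2aECKO against the 4-OHT control. Lhx6, a factor of migrating cortical interneurons, was lower in both, at -0.38 and -0.36, and its second probe set gave -0.48 and -0.39. After quantile normalization over all 4 arrays Lhx6 was higher in the 4-OHT control than in 2afl/fl, by a log2 difference of 0.28. The size of its folds therefore depended on the control, with -0.68 in 2aECKO against the 4-OHT control and a smaller fold in 2aiECKO against 2afl/fl. Of the 12 genes of neuroblasts and immature neurons 1 was higher in 2aECKO, the guidance receptor gene Robo2 with signals of 37.4 and 57.0, and 0 of 11 in 2aiECKO.

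The signalling pathways around Hes1 and Egfr showed few differences. Of 20 Notch pathway genes 1 was higher in 2aECKO, the receptor gene Notch2 with signals of 164 and 219, a log2 fold of 0.42, and 0.30 in 2aiECKO. The second Notch2 probe set, at signals of 49.5 and 50.9, gave 0.04 in 2aECKO. The list medians were 0.02 and 0.01, and 0 Notch genes were lower. Hes5, the other main Notch effector in these cells, was singled out after its values were seen and had log2 folds of 0.01 and -0.01. Of 12 EGF receptor pathway genes 0 were past the threshold in 2aECKO, and 0 of 11 in 2aiECKO. Spry2, a feedback inhibitor of growth factor signalling, came closest and just short of it at -0.32 in 2aECKO, with signals of 368 and 296. Averaged over its probe sets Spry2 had -0.16, and after quantile normalization over all 4 arrays -0.33, past the threshold. Against the 4-OHT control after that normalization it had -0.07 in 2aECKO. Spry4 and Dusp6, singled out after their values were seen, had -0.28 each in 2aECKO, and 0.13 and 0.005 in 2aiECKO. The controls, 4-OHT minus 2afl/fl, differed by -0.44 for Spry4 and 0.03 for Dusp6 after the same normalization, so the Spry4 value depended on the control. In 2aECKO 5 of the 12 genes were above 0. The ligand genes Egf, Btc, Ereg and Epgn and the receptor gene Erbb4 were below 50 on every array.

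The list of related noncoding RNAs held those beside Sox2, Pax6 and the Dlx genes and Rmst, a nuclear RNA from a separate locus that binds Sox2 protein, which had the largest fold of the list. Its signal was 74.5 in 2afl/fl, 152 in 2aECKO, 56.1 in the 4-OHT control against 65.6 in 2aiECKO, log2 folds of 1.03 and 0.23. A dimmer Rmst probe set, with signals under 50 on every array, gave -0.08 in 2aECKO. Pax6os1 was below 50 on every array.

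**Figure D4:**
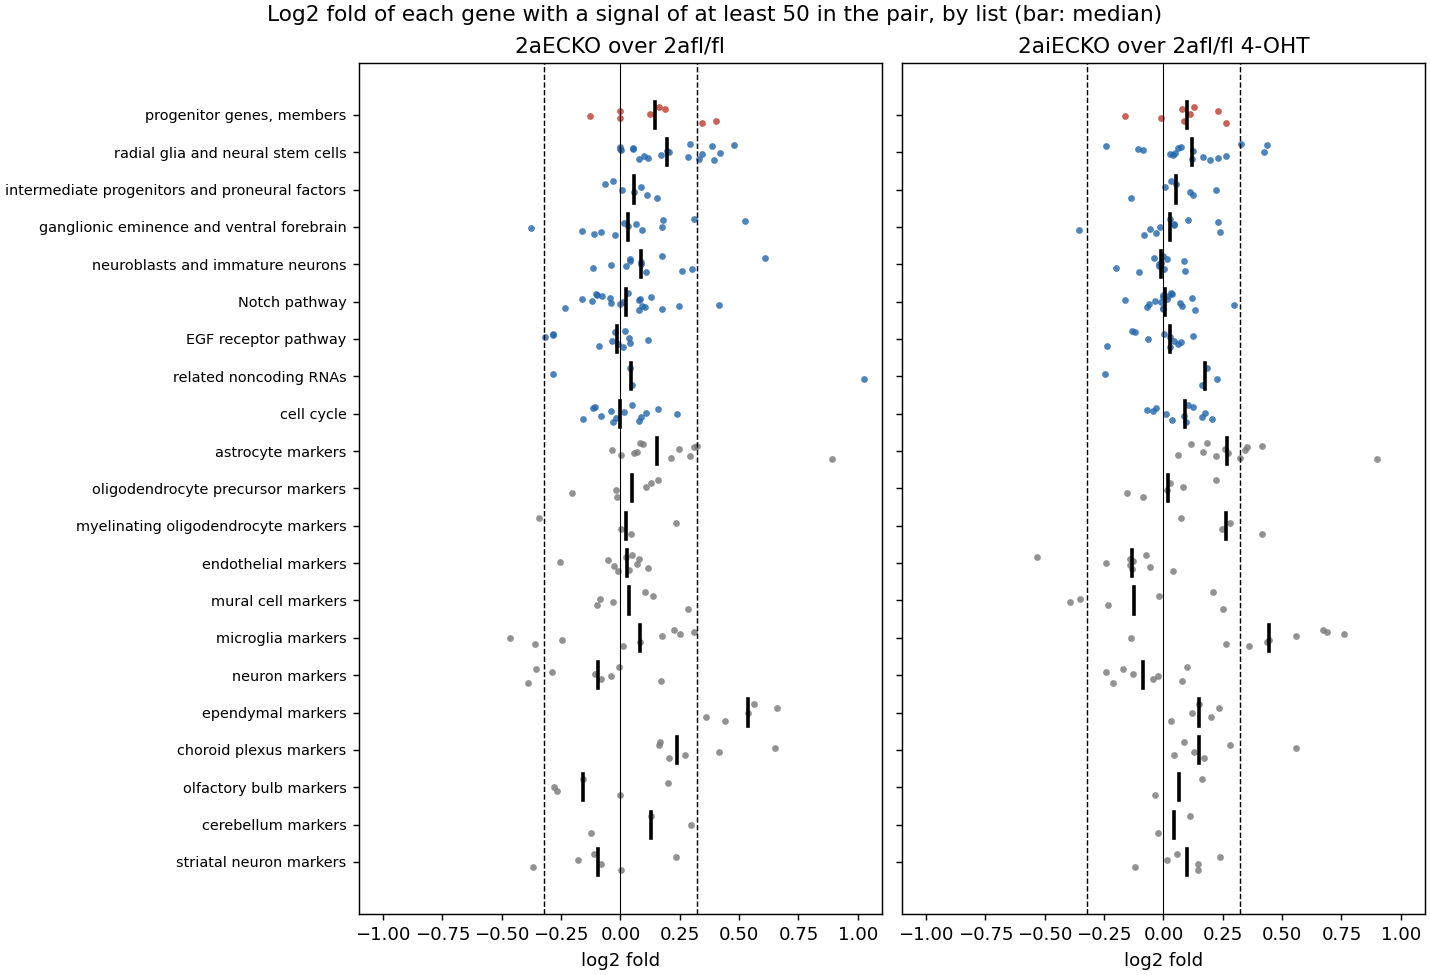
Log2 fold of each gene that reached a signal of 50 in the pair (points) by list, for the progenitor genes described here (red, top row), pathway lists (blue) and cell type or region markers (grey; lens and red cell lists not drawn), in 2aECKO on the left and 2aiECKO on the right; black bars are list medians and dashed lines mark the fold threshold, a log2 fold of 0.32 up or down. In 2aECKO all 5 ependymal markers lie past the right dashed line, and the median of the radial glia list, 0.19, lies above that of the cell cycle list, -0.0024.

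Markers of other cells that express the same genes were read beside these values. In 2aECKO all 5 ependymal markers were higher by the fold threshold, with a median log2 fold of 0.54 and summed signals of 558 and 793, control first. Tmem212 had 0.66, Dynlrb2, a dynein light chain gene, 0.56 and Ccdc153 0.54. In 2aiECKO 0 of 5 were, with a median of 0.15 and summed signals of 499 and 557. Set against the 4-OHT control after quantile normalization over all 4 arrays, 1 of 5 was higher in 2aECKO and the median was 0.01. Of 12 astrocyte markers 2 were higher in 2aECKO and 4 in 2aiECKO, with medians of 0.15 and 0.27. Their summed signals were 27839 and 31257 in the 2aECKO pair and 19573 and 23269 in the 2aiECKO pair. Gfap, the astrocyte filament gene, led with 0.89 and 0.90, ahead of the connexin genes Gjb6 with 0.32 and 0.41 and Gja1 with 0.31 and 0.35. Of 6 choroid plexus markers 2 were higher in 2aECKO, Otx2 with 0.65 and Aqp1 with 0.42, and 1 in 2aiECKO, Otx2 with 0.56. Against the 4-OHT control, after quantile normalization over all 4 arrays, Otx2 had 0.08 and Aqp1 0.10 in 2aECKO, both short of the threshold. The astrocyte markers differed between the controls, 4-OHT minus 2afl/fl, by a median log2 difference of -0.29 after that normalization, against 0.11 for Sox2. Their folds in 2aiECKO therefore depended on the control. Against their own controls the medians of the ependymal and astrocyte lists were above 0 in both models, as was Sox2. The part of these cells in the Sox2 values was not tested.

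Vascular markers bear on Nes and neuronal markers on the tissue as a whole. Of 10 endothelial markers in the 2aECKO pair 0 were past the threshold, with a median of 0.03. In 2aiECKO 1 of 9 was lower, Vwf at -0.53, with a median of -0.13. Of 6 mural cell markers 2 were lower in 2aiECKO, Abcc9 at -0.39 and Kcnj8 at -0.35, with a median of -0.12. The other 2 Abcc9 probe sets gave 0.10 and 0.00, and Kcnj8 had -0.15 against 2afl/fl after quantile normalization over all 4 arrays. Among 8 neuron markers 2 were lower in 2aECKO, Slc17a7 at -0.39 and Camk2a at -0.36, and 0 in 2aiECKO. Against the 4-OHT control both were above 0 in 2aECKO. Of 9 microglia markers 7 were higher in 2aiECKO, with Tyrobp at 0.76, C1qa at 0.69 and C1qb at 0.67. In 2aECKO 0 were higher and 2 lower, P2ry12 at -0.36 and Tmem119 at -0.46. The oligodendrocyte precursor list, whose cells can express Sox2 and Egfr, had medians of 0.05 and 0.02 with 0 of 6 genes past the threshold in either model. As for the labelled tissue, 7 of 10 cerebellum markers, among them Gabra6 and Pcp2, were below 50 on every array. The others were not: Zic1 had 1631 in 2afl/fl, 2003 in 2aECKO, 986 in the 4-OHT control and 1066 in 2aiECKO. Cbln1 had 718, 659, 730 and 718 in the same order, and Barhl1 reached 52.4 in 2aECKO. Whether the pools held cerebellum was not tested.

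The crystallin genes Cryba1 and Cryaa were high in the 4-OHT control pool, and both Pax6 and Sox2 are also genes of the developing eye. Cryba1 had a deposited signal of 149 in the 4-OHT control against 13.6 in 2aiECKO, 16.6 in 2afl/fl and 19.6 in 2aECKO, and Cryaa had 147 against 26.8, 61.0 and 48.7. After quantile normalization over all 4 arrays the controls differed by a log2 difference of 3.71 for Cryba1 and 1.79 for Cryaa. Crybb2, with 64.8 in the 4-OHT control and a log2 fold of -0.39 in 2aiECKO, differed by 0.21 between the controls. The summed signal of the 11 matched lens and retina markers was 619 in the 4-OHT control against 328 in 2aiECKO, against 495 in 2afl/fl and 481 in 2aECKO, and Mip, Bfsp1, Rax, Six6 and Crx were below 50 on every array. The part of that tissue in the Pax6 and Sox2 signals of the 4-OHT control was not tested.

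Levels across all 4 arrays can be set side by side only after bringing the pairs to 1 scale, since the median signal was 74.1 and 75.5 in the 2aECKO pair and 48.7 and 49.2 in the 2aiECKO pair. After quantile normalization over all 4 arrays Eomes had a signal of 212 in 2afl/fl, 211 in 2aECKO, 92.7 in the 4-OHT control against 107 in 2aiECKO. The day 8 pair lay well below the day 9 pair, by a log2 difference of -1.19 between the controls and -0.98 between the knockouts. Of the 12497 genes whose mean signal reached 50, 15 had a lower difference between the controls. Dlx1 and Dlx2 were also lower in the day 8 pair, by -0.54 each between the controls and by -0.65 and -0.59 between the knockouts. Pax6 went the other way, with 127 in 2afl/fl, 170.2 in 2aECKO, 178 in the 4-OHT control against 188 in 2aiECKO. Its difference of 0.49 between the controls was larger than its fold in either knockout. The same difference was 0.31 for Hes1, 0.19 for Egfr, 0.11 for Sox2 and -0.15 for Nes. The middle 90% of all genes ran from -0.41 to 0.47.

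Markers of the olfactory bulb, whose output neurons express Eomes, were lower in the day 8 pair as well. Tbx21, a factor of those neurons, had deposited signals of 86.9 in both 2afl/fl and 2aECKO, 17.0 in the 4-OHT control against 22.2 in 2aiECKO. The 5 olfactory bulb markers differed between the controls by a median log2 difference of -1.07 after quantile normalization over all 4 arrays. Against its own control 2aECKO had a median of -0.16 for them, and 2aiECKO 0.06 with 2 genes over the floor. The part of olfactory bulb tissue in the Eomes and Dlx levels was not tested. The controls also differ in age and 4-OHT, and the knockouts in these and in cre line, which cannot be told apart here. The deposited values of the pairs were also on different scales, and whether the arrays of the pairs were processed apart is not given here.

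**Figure D5:**
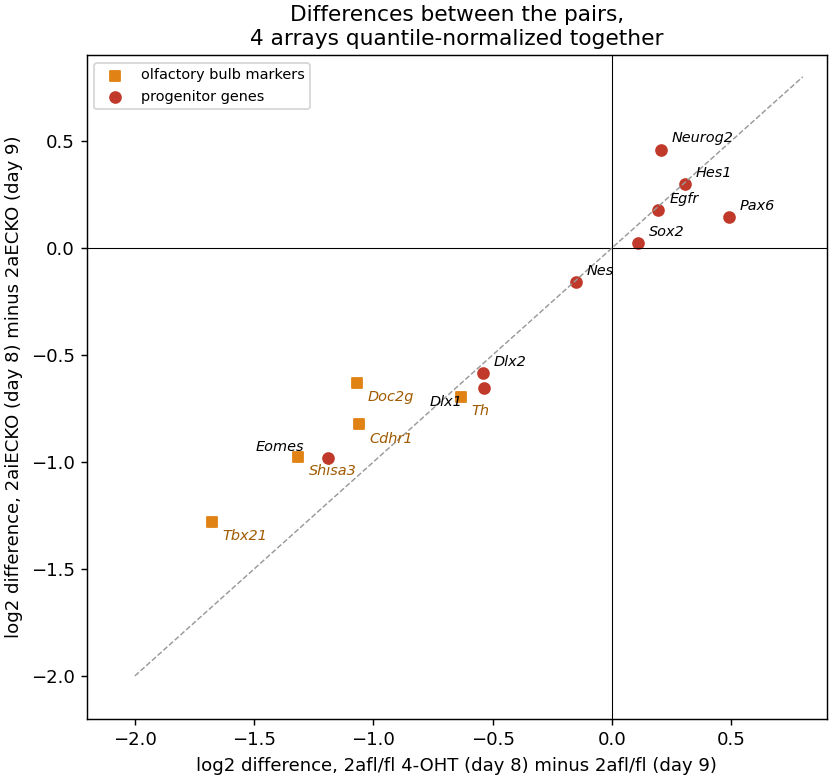
Log2 difference between the controls, 2afl/fl 4-OHT minus 2afl/fl (horizontal axis), and between the knockouts, 2aiECKO minus 2aECKO (vertical axis), after quantile normalization over all 4 arrays; red circles are the 9 progenitor genes, orange squares the 5 olfactory bulb markers and the dashed line marks equal differences. Eomes, at -1.19 and -0.98, lies among the olfactory bulb markers at the lower left, Dlx1 and Dlx2 lie at about -0.54 on the horizontal axis, and Pax6 lies farthest to the right.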

How the data were processed

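Cerebrum RNA was hybridised to 4 arrays, 1 per condition. Each deposited value is a probe set's intensity, not log-transformed, which the authors obtained by RMA (background adjustment, quantile normalization and summarization). The study's methods name the affy package in R and the submitters' processing notes Partek 6.6; which was used is not settled here. Intensities were log2-transformed. Probe sets with exactly 1 symbol in the platform annotation were used, 34958 of 45101, with symbols updated through gene identifiers of RefSeq's GRCm38.p6 table. A gene counted as higher with a knockout signal of at least 50 and a log2 fold of at least 0.32 over its control, and as lower with a control signal of at least 50 and a fold of at most 0.8.

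The members and the 22 gene lists were chosen with earlier results of these data known. Named genes were the members, of each pathway list up to 5 genes past that fold or else the largest fold, of each marker list up to 3, Mfsd2a, and the 3 genes nearest to the member with the widest range. As alternatives, a gene's probe sets were averaged, less specific probe sets were dropped, the arrays were quantile-normalized together or folds median-centred, the floor was set to 100 or removed, the fold to 1.5, and the knockouts were set against the other control or against both averaged. Listed genes without a match were not analysed here. With 1 array per condition there is no test, and this number limits the precision. The code that makes the calls was tested on simulated data with known changes, which says nothing about replicate error. Summed marker signals are over all matched genes of a list. Python 3.11.15, numpy 2.4.6, pandas 2.3.3 and matplotlib 3.10.9 were used.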

Additional observations from a re-analysis of the deposited data

Results flagged for a closer look

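Among the genes picked for naming as described above, 4 had log2 folds of opposite sign in the models. In each, 1 of the folds was past the fold threshold, and the difference was not tested for any of them. Mobp, a myelin gene, had -0.34 in 2aECKO and 0.07 in 2aiECKO, a difference of -0.41, the latter from signals of 48.5 and 51.0, at the floor. Its second brightest probe set had -0.32 and -0.07, the same sign in both models. Vwf, an endothelial gene, had 0.02 and -0.53, a difference of 0.56. Cryba1, the lens crystallin gene that stood out in the 4-OHT control, had 0.24 and -3.46, a difference of 3.7, the former from signals of 16.6 and 19.6, below the floor of 50. Alas2, a red cell gene, had 1.05 and -0.51, a difference of 1.56, the latter from signals of 36.8 and 25.8, also below the floor. P2ry12, a microglia gene named above but not picked in that way, also met this rule, with -0.36 in 2aECKO and 0.26 in 2aiECKO. None of the 9 progenitor genes met it.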

How the results depend on the processing

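No paired analysis was possible because each condition has 1 array. Of the log2 folds of the 9 genes, 40 of 54 alternative values in 2aECKO and 40 of 54 in 2aiECKO lay within the robust SD of all genes from the value given; the others came from the mean over probe sets, for Pax6 in 2aECKO, or from another control. With the other control array after quantile normalization over all 4 arrays, which by construction adds the difference between the controls, log2 folds past the threshold reversed in 2aECKO to -0.066 for Pax6, -0.065 for Id3, -0.14 for Isl1, 1.52 for Mobp, 0.50 for Slc17a7, 0.045 for Camk2a and -0.021 for Dynlrb2, and in 2aiECKO to -0.0075 for Gjb6, -0.37 for Mbp and 0.42 for Cryba1. Among the 9 genes, the fold of Egfr in 2aECKO, short of the threshold, changed sign there to -0.07. So did those in 2aiECKO of Eomes to -0.98, Dlx1 to -0.46, Dlx2 to -0.42 and Hes1 to 0.15. Folds of other named genes short of the threshold also changed sign, among them Mcm3 to -0.22, Gadd45g to -0.22 and Tyrobp to -0.04 in 2aECKO. In 2aECKO Eomes, Dlx1 and Dlx2 were higher against the other control and against the mean of both, 3 genes in place of Sox2 and Pax6, which were short of the threshold in both. The share of all genes past the threshold under these settings is not given here, so counts against another control are not a result about the genes counted. With the mean of both controls Mobp reversed to 0.58 and Slc17a7 to 0.050 in 2aECKO. In 2aiECKO Eomes then had -0.39, Dlx1 -0.19, Dlx2 -0.15 and Hes1 0.0002. Without probe sets of less specific design Abcc9 reversed to 0.097 in 2aiECKO, and the cause was not tested. The number of progenitor genes higher in 2aECKO was 1 over the mean of all probe sets and 0 at a fold of 1.5, and 1 was lower against the other control. In 2aiECKO 2 were higher and 3 lower against the other control, and 1 higher and 1 lower against the mean of both. The median log2 fold in 2aECKO was 0.094 over the mean of all probe sets and 0.24 against the mean of both controls, and in 2aiECKO -0.0064 against the other control and -0.045 against the mean of both. Under the remaining alternatives these counts were within 1.5 times and the medians within 0.05 of those given.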

Other observations

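Eomes had the widest range of the 9 genes over the 4 arrays after quantile normalization over all 4. The 3 genes nearest to it, by Euclidean distance over the 4 centred log2 values among the 12496 other genes whose mean signal reached 50, were Lekr1 at 0.093, Irf2 at 0.15 and Zbed6 at 0.15. Lekr1 had deposited signals of 97.5 in 2afl/fl, 98.9 in 2aECKO, 29.3 in the 4-OHT control against 34.7 in 2aiECKO. With 4 arrays of 2 pairs, such likeness mainly reads the difference between the pairs.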
